A study of Mus musculus with 9 samples.

Results

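The neuronal protein HuD (ELAVL4) binds RNA, and 547 of the 14236 circular RNAs (circRNAs) probed on an array were detected in RNA precipitated with it from the mouse striatum and in neither control precipitation. They were chosen by a detection mark that the scanner software gives each spot, well above background. The mark had to be present on all 3 arrays of the HuD precipitation and absent on all 6 control arrays. The mark is itself a measured value, so the differences between HuD and control arrays given here for these circRNAs describe how they were chosen and carry no test. The 547 are 9.33% of the 5861 circRNAs marked on all 3 HuD arrays. "Alone" refers to this mark and not to a signal of 0 in the controls.

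RNA immunoprecipitation (RIP) pulls a protein down with an antibody and recovers the RNA attached to it. HuD RIP used tissue of adult HuD-overexpressing (HuD-OE) mice and an antibody to the myc tag of the transgenic HuD protein. WT RIP used the same antibody on wild-type tissue, which holds no tagged protein. IgG RIP was the other control, on HuD-OE tissue. For it the study's methods give nonimmune IgG and the labels the anti-myc antibody, and the group is called IgG RIP here as titled. Per those methods the transgene is driven by the Camk2a promoter, so the tagged protein comes from cells that use this promoter, and the mice were backcrossed to C57BL/6J. Per the methods, tissue of 3 mice was pooled for a RIP and 3 separate RIP assays were run per group. Whether each assay had its own pool is not clear from this, so the spread between samples may be technical. Ages beyond adult were not given. Linear RNA was removed with RNase R before Cy3 labelling, and each array took 1 sample.

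HuD belongs to the Hu/ELAV family, whose members bind AU-rich and U-rich stretches of RNA and act on the stability, splicing, transport and translation of their targets. It is known in neurons for roles in differentiation, axon growth, synaptic plasticity and memory. A circRNA arises when the end of an exon is spliced back to the start of the same or an earlier exon, so that the product has no free ends and resists RNase R. Brain tissue is rich in circRNAs, many of them from genes of synaptic proteins, and they can outlast the linear RNA of their host gene.

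Each circRNA probe reads the back-splice junction, and the junction is what distinguishes a circle from the linear transcript of the same gene. All 151 members that carry a name have a junction sequence of 60 bases in the deposited tables. Short runs known from Hu protein targets were looked for in them, on the strand as listed and on the other strand. They were ATTTA (an AU-rich element core), TTTTT (a U-rich run) and GTTTG (a GU-rich run). The 4 members of highest level come first, then 6 other members named in the text that hold a run. Capitals mark the runs.
Nucks1, mmu_circRNA_20865, chr1:131919004-131924641, plus strand: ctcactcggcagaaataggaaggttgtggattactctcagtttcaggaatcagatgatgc
Map4, mmu_circRNA_45112, chr9:109978849-110036855, plus strand: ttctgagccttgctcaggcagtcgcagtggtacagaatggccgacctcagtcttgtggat
Fam3c, mmu_circRNA_39888, chr6:22328554-22343319, minus strand: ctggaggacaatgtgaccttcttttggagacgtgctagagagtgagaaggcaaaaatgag
Sec62, mmu_circRNA_35205, chr3:30800130-30818936, plus strand: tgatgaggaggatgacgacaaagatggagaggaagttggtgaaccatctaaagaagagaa
Spin1, mmu_circRNA_26319, chr13:51123087-51144535, plus strand: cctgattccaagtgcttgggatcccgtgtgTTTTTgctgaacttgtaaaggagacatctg
Prkacb, mmu_circRNA_36278, chr3:146737933-146748047, minus strand: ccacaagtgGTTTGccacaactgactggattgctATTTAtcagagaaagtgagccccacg
Sec62, mmu_circRNA_35204, chr3:30800130-30801165, plus strand: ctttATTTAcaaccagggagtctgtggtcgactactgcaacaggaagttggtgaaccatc
Fam3c, mmu_circRNA_39886, chr6:22309326-22322348, minus strand: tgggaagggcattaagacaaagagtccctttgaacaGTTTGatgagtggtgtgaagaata
Abi2, mmu_circRNA_20222, chr1:60437055-60453762, plus strand: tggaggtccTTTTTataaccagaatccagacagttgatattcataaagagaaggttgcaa
Cnot2, mmu_circRNA_22666, chr10:116492291-116527949, minus strand: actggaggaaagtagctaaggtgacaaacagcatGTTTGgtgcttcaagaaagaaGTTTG

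Of the 10 named members with the highest level, 1 held a run, the Spin1 circRNA. The run ATTTA stood in 8 of the 151 named members (5.30%), beside 5.29% of the 586 other named circRNAs. TTTTT stood in 5 members (3.31%, beside 3.75%) and GTTTG in 16 (10.6%, beside 8.36%). At least 1 of the 3 runs stood in 27 members (17.9%, beside 16.0%). On the other strand the first of these runs stood in 12 members (7.95%, beside 2.73% of the others), the second in 14 (9.27%, beside 8.19%) and the last in 9 (5.96%, beside 7.34%). The windows cover the junction alone, so a run elsewhere in a circle was not looked for.

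Several host genes gave more than 1 member, and in 6 of these genes the circles share a genomic start or end. Shown are the 3 genes whose junction sequences have 20 or more bases in common, and capitals mark the longest run that both junctions of the gene hold.
Fam3c, mmu_circRNA_39888: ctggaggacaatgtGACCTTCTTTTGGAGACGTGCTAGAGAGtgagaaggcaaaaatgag
Fam3c, mmu_circRNA_007270, chr6:22318933-22343319, minus strand: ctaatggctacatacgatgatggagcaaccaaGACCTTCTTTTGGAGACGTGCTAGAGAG
Mpp6, mmu_circRNA_40255, chr6:50143718-50180659, plus strand: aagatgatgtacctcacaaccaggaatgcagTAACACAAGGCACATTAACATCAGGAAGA
Mpp6, mmu_circRNA_000405, chr6:50143718-50183871, plus strand: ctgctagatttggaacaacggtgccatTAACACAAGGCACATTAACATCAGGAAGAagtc
Tmf1, mmu_circRNA_40594, chr6:97167248-97172339, minus strand: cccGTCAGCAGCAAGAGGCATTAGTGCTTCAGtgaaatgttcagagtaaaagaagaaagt
Tmf1, mmu_circRNA_40595, chr6:97167248-97173403, minus strand: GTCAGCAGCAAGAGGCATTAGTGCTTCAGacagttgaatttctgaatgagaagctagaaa

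The Fam3c pair shares 28 bases and its genomic end, and the Mpp6 and Tmf1 pairs share 29 bases and their genomic start. In the Fam3c and Mpp6 pairs the bases before the shared run differ, and in the Tmf1 pair those after it. The probes of such a pair read partly the same sequence, so they are not independent measurements.

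The arrays differed in brightness, and this touches every count here. Per array, 6218 to 10534 circRNA probes had the mark in HuD RIP, whereas 3614 to 6342 had it in WT RIP, and for IgG RIP the numbers were 3088 to 3740. On every array it equalled a background-subtracted signal of at least 5 units, in 136584 of 136584 spot values, so it is an absolute limit that no scaling enters. HuD RIP replicate 2 and WT RIP replicate 1 were about equally bright, with 6218 and 6342 marked circRNA probes. Of these, 910 were marked on HuD RIP replicate 2 and not on WT RIP replicate 1, and 1034 the other way round. The part of array brightness in the choice of the 547 was not tested. IgG RIP replicate 3 had a scan time of its own in the file headers, and the other 8 arrays shared 1 scan time. Arrays of 1 scan time were taken as 1 slide, so the slide is inferred here.

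The same rule turned to the other groups found 1 circRNA in WT RIP alone and 2 in IgG RIP alone. Another 169 were marked on all 3 HuD RIP and all 3 WT RIP arrays and on no IgG RIP array, and 0 on all HuD RIP and all IgG RIP arrays without WT RIP. A much larger number lay close to the rule. On all 3 HuD RIP arrays and exactly 1 control array there were 923, and for 805 of these that array was WT RIP replicate 1. On exactly 2 HuD RIP arrays and no control there were 1280. The array of HuD RIP replicate 1, the brightest of all, was the sole marked array for 2236. With HuD RIP replicate 2 left out the rule takes 1695 circRNAs, and with WT RIP replicate 1 left out 1352.

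**Figure D1:**
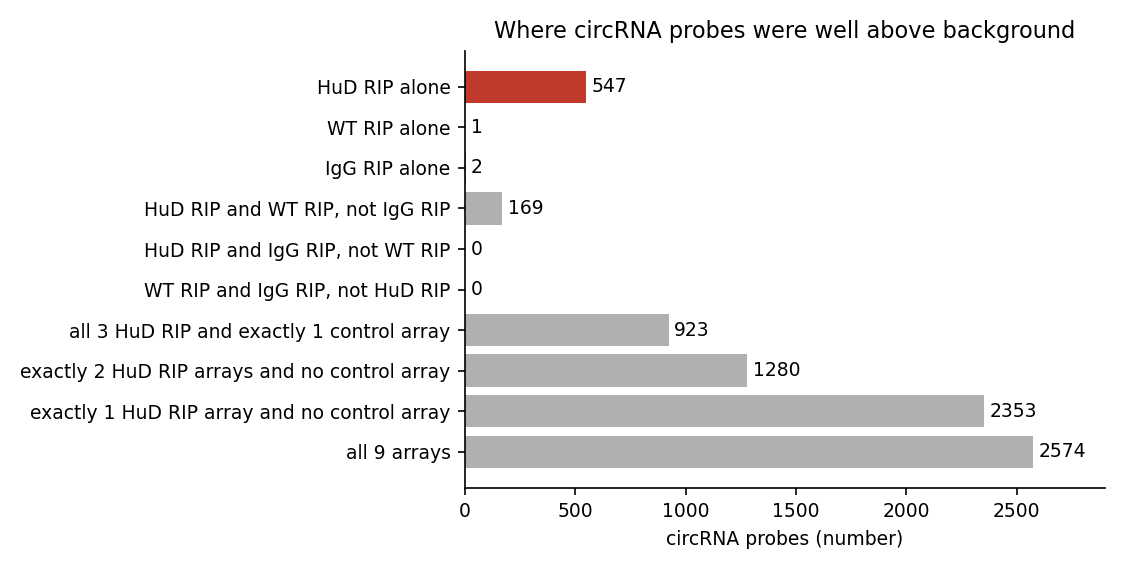
Number of circRNA probes (horizontal axis) by the arrays on which they were marked well above background, where a group counts as present with all 3 of its arrays and as absent with none. The 547 members are in red, with 1 probe for WT RIP alone and 2 for IgG RIP alone, and 923 more probes missed the rule through exactly 1 control array. The mark is an absolute limit and most control arrays were dimmer, and the part of brightness in these counts was not tested.

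On the HuD RIP arrays the 547 members were dim. Their median signal was 30.8, 7.11 and 13.1 units on HuD RIP replicates 1, 2 and 3, against 2.94, 1.04 and 1.49 in WT RIP and 1.23, 0.842 and 0.927 in IgG RIP. The order of the 3 HuD RIP medians is that of the brightness of the arrays. HuD RIP replicate 2 held the lowest of the 3 HuD signals for 468 members, replicate 3 for 59 and replicate 1 for 20. On that lowest array 178 members were within 1 unit of the mark, and 111 reached 10 units or more. The highest control signal was at least 4 units for 185 members and under 2.5 for 128. It came from WT RIP replicate 1 in 293 members.

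**Figure D2:**
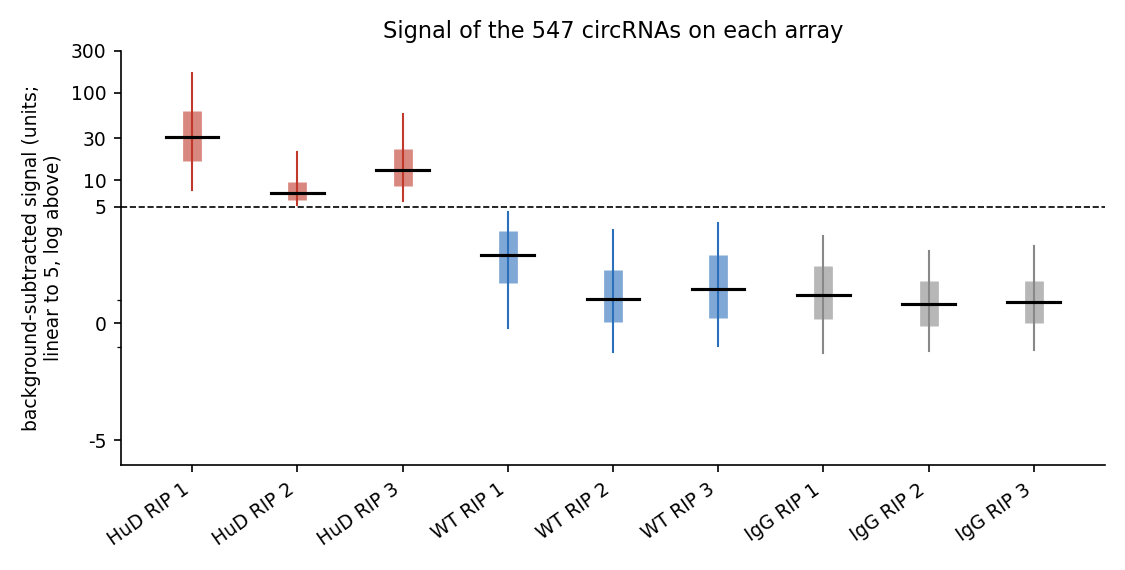
Background-subtracted signal of the 547 members on each of the 9 arrays, on an axis that is linear up to 5 units and logarithmic above. Black lines are medians, thick bars span the middle 50% of members and thin lines the 5th to 95th percentile, and the dashed line is the mark at 5 units, which the rule puts between the HuD RIP arrays and the controls.

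Members and non-members met at the mark. The 5 members nearest to it were ASCRP4014052, ASCRP4012424 and ASCRP4008458, at 5.01 units on HuD RIP replicate 2, and ASCRP4000453 and ASCRP4007071, at 5.01 and 5.02 on HuD RIP replicate 3. The 5 circRNAs that missed it most narrowly on 1 array were ASCRP4009130 and ASCRP4007915, at 5.002 on WT RIP replicates 1 and 3, ASCRP4008671 and ASCRP4005683, at 4.99 on HuD RIP replicate 2, and the Hnrnpab circRNA mmu_circRNA_23305, at 5.007 on WT RIP replicate 1. That last circRNA, from a gene for an RNA-binding protein of the hnRNP family, had 77.6, 25.7 and 40.9 units on the HuD RIP arrays.

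To set arrays of unequal brightness side by side, each log2 processed signal was reduced by its array's 75th percentile over all probes, and this difference is called the level. Junctions bind their probes with unequal strength, so a rank by level orders probe signals and not amounts of circRNA. The median level of the members was -0.51, -0.65 and -0.49 on HuD RIP replicates 1, 2 and 3, so most members lay below the 75th percentile of their array. Over the 3 arrays the median of the members' mean levels was -0.57, against 0.38 for the 5314 other circRNAs marked on all 3 HuD RIP arrays and 1.02 for the 2574 marked on all 9 arrays. The replicate that was highest in level varied, being replicate 1 for 199 members, 2 for 181 and 3 for 167. Across the 547 members, Spearman's rho of the level was 0.76 between replicates 1 and 3, 0.57 between 2 and 3 and 0.44 between 1 and 2. These 3 values are over circRNAs that share the same arrays and are descriptions. The SD of a member's level over the 3 arrays was 0.53 in the median, with a range from 0.0097 to 1.52.

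A control that is not well above background has no measured level, only a limit. This limit was taken on each control array as the higher of the probe's own level and the floor, the lowest level among circRNA probes with the mark. Floors were -1.29, -0.03 and -0.50 in WT RIP and -0.28, 0.07 and 0.07 in IgG RIP, since on a dim array the absolute mark stands high in level. The mean HuD RIP level of 281 members was above the mean WT RIP limit, so that on this scale and floor their fold over WT RIP is above 1. Folds given below as "at least" are limits of this kind. They compare means, leave out the spread between arrays and hold for this scale and floor alone. Of all 601 tested probes with no mark on any WT RIP array 48.8% passed. However, 547 of the 601 are the members themselves, and 12 of the 54 others passed. Against IgG RIP 161 members passed, beside 29.5% of the 2873 tested probes with no mark there. These also include the members, and 687 of the 2326 others passed. All 161 also passed against WT RIP. These counts depend on the scale and on the floor. They were 470 and 355 with the percentile taken over probes marked on all 9 arrays, and 547 and 547 without scaling. Scaling by the median of each array gave 251 and 136. With the 5th percentile of marked levels as the floor they were 245 and 112. For the remaining members, the higher signal in HuD RIP and the dimmer control array cannot be told apart at this scale. In 64 members all 3 HuD RIP levels were above every control floor, and 62 of these carry a name.

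**Figure D3:**
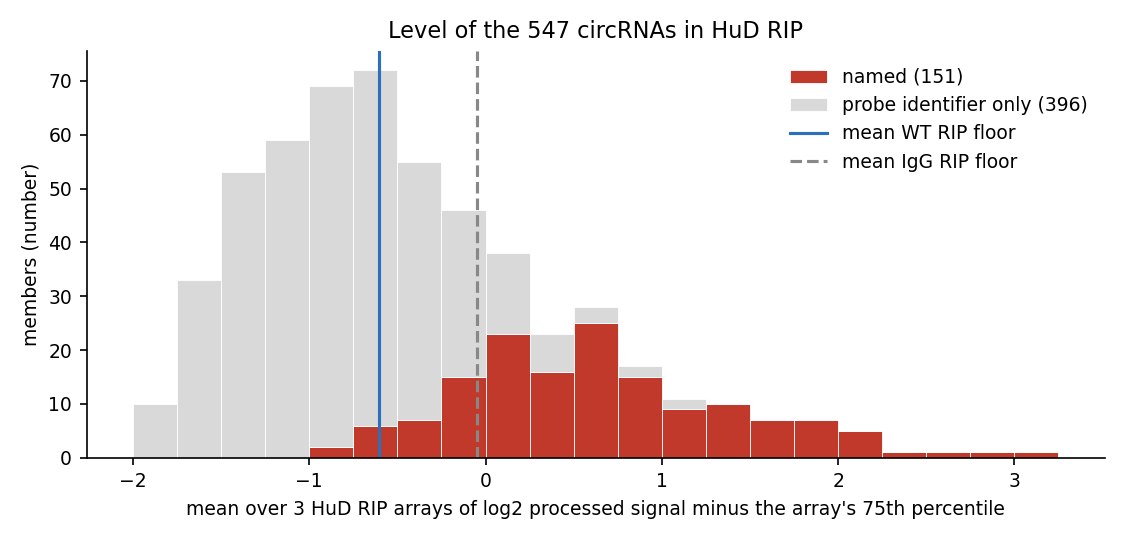
Histogram of the mean level over the 3 HuD RIP arrays, with the level as log2 processed signal minus the array's 75th percentile and the number of members on the vertical axis. Named members (red, stacked with those known by probe identifier, grey) lie mostly to the right of the mean WT RIP floor at -0.60 (blue) and of the mean IgG RIP floor at -0.05 (dashed grey).

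Names come from the authors' tables of circRNAs that they called higher in HuD RIP, so a name is itself a result of these arrays. Of the 151 named members, 101 were listed against both controls, 28 against WT RIP and 22 against IgG RIP. Their median of mean levels was 0.56, beside -0.83 for the 396 members with a probe identifier only. The limit against WT RIP was passed by 148 named and 133 unnamed members, and that against IgG RIP by 126 and 35. The highest of the unnamed members was ASCRP4002780, with 47.3, 18.5 and 67.0 units in HuD RIP and at most 4.76 in a control. ASCRP4008278 followed with 218, 7.57 and 36.8 units and at most 1.89 in a control, and ASCRP4004574 had 147, 11.7 and 40.7 with at most 3.98. In the last pair the signal on replicate 1 was several times that on the other HuD RIP arrays.

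In the limma fit over all 6871 tested probes, 313 of the 547 members were called as higher on the HuD RIP side against WT RIP at an adjusted p under 0.05, beside 12.4% of all tested probes. Against IgG RIP 257 members were called, beside 14.2% of all, and 237 against both, beside 9.88% of all. The rule used these contrasts, so nothing is read from these counts. The median fitted log2 difference of the members was 1.54 over WT RIP and 1.19 over IgG RIP, beside -0.36 and -0.29 over all tested probes. The control side of these differences rests on values below background, where up to 268 members shared 1 identical value on an array. Between WT RIP and IgG RIP, limma called 0 members in either direction, beside 0.0146% of all tested probes, with 45 members (8.23%) at an unadjusted p under 0.05, beside 5.72% of all tested probes. The rule held both sides of this contrast under the mark, so nothing is read from these counts either. With normexp background correction 19 members were called against WT RIP and 18 against IgG RIP, and the methods' t-test gave 0 and 85 after adjustment. The counts also leaned on single arrays. Without HuD RIP replicate 3 the calls were 166 against WT RIP and 124 against IgG RIP. Those against WT RIP were 198 without WT RIP replicate 3, and those against IgG RIP were 158, 160 and 143 without IgG RIP replicates 1, 2 and 3.

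The member of highest level was a circRNA of Nucks1, which encodes a nuclear, chromatin-associated phosphoprotein. Its signal was 432, 70.6 and 172 units on the 3 HuD RIP arrays, 3.16, 0.685 and 2.08 in WT RIP and 0.153, 0.436 and 0.164 in IgG RIP. Even the lowest HuD RIP array was far above every control, and the 3 HuD RIP signals were in the order of the arrays' brightness. Its level was 3.11 ± 0.33 (SD, n = 3), at least 13.1-fold over WT RIP and at least 8.91-fold over IgG RIP, and both were the highest limits among the members. Second came a circRNA of Map4, a microtubule-associated protein. It had 365, 58.0 and 181 units in HuD RIP, 1.21, -0.567 and 0.340 in WT RIP and 0.294, -0.100 and -0.663 in IgG RIP. Of its 6 control values 3 were thus below 0, that is, dimmer than the local background. Its level of 2.88 ± 0.47 was at least 11.2-fold over WT RIP and at least 7.60-fold over IgG RIP.

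Next was Fam3c, which encodes a secreted, cytokine-like protein. Its circRNA mmu_circRNA_39888 had 310, 40.7 and 180 units in HuD RIP, 3.78, 1.80 and -0.873 in WT RIP and -2.67, 0.832 and 0.759 in IgG RIP, and was at least 9.27-fold over WT RIP. Sec62, a subunit of the machinery that moves proteins into the endoplasmic reticulum, had 153, 41.4 and 134 units in HuD RIP for mmu_circRNA_35205. Its WT RIP signals of 3.82, 3.30 and 3.19 lay between 3 and 4 units on all 3 arrays, under the mark. In IgG RIP it had 0.902, -0.718 and 1.18. The limit for this circRNA was at least 7.63-fold over WT RIP and at least 5.19-fold over IgG RIP.

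The next 6 were of like size. BC005537 had 270, 26.4 and 126 units in HuD RIP and at most 1.91 in a control. Edil3, a secreted protein that binds integrins, had 316, 23.9 and 106, with 4.39 on WT RIP replicate 1. Spin1, a reader of histone methylation, had 166, 35.5 and 127, with no control above 0.124. The Spin1 circRNA had the lowest highest control of these 10, and 5 of its 6 control signals were below 0. The other 3, from Rbbp4, Actr2 and Mef2c, are given with their groups below, and over the 10 the limits ran down to at least 6.07-fold over WT RIP and at least 4.13-fold over IgG RIP.

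**Figure D4:**
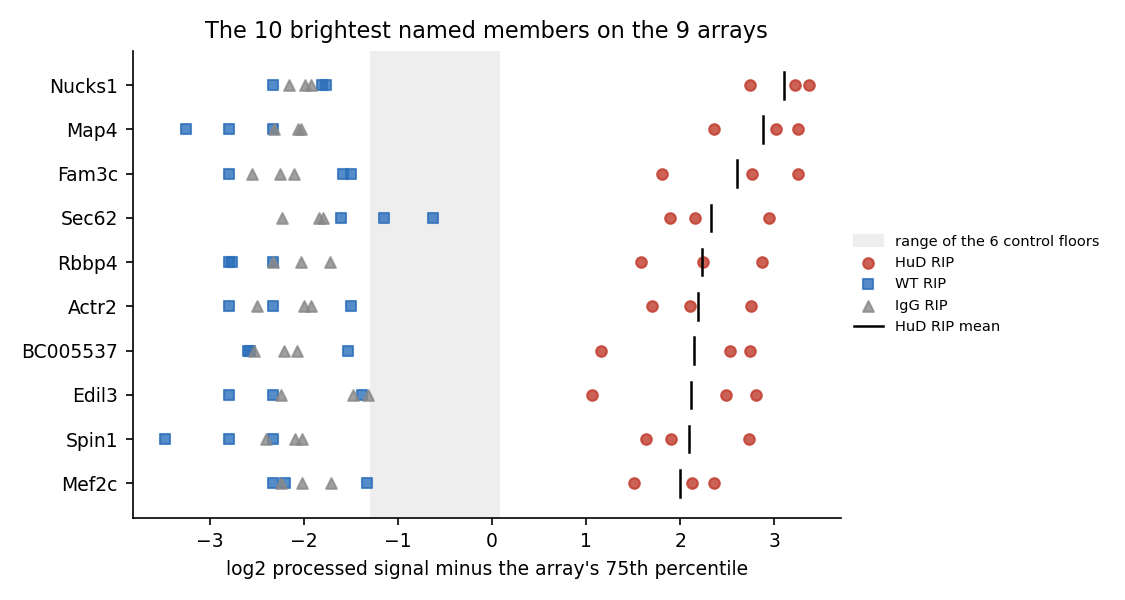
Level (log2 processed signal minus the array's 75th percentile) of the 10 named members of highest mean level on each array, with HuD RIP as red circles, WT RIP as blue squares, IgG RIP as grey triangles and the HuD RIP mean as a black line. Every HuD RIP point lies to the right of the shaded range of the 6 control floors, -1.29 to 0.07, and control points, which lack the mark, rest on values below background.

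The host genes were grouped by role in 10 lists, which hold 76 of the 148 members with a gene symbol. Over all roles 151 of the 737 named circRNAs are members. Of these 151, 62 were above every control floor on all HuD RIP arrays and 126 passed the limits against both controls. The lists are described by counts alone. For transcription and chromatin, 13 of 85 named circRNAs were members, and 6 of the 13 were above every control floor on all HuD RIP arrays. Besides Nucks1 they include Rbbp4, a histone-binding protein of several chromatin complexes. The Rbbp4 circRNA had 207, 28.2 and 133 units in HuD RIP, 1.65, 0.448 and 0.588 in WT RIP and -0.665, -1.18 and -0.257 in IgG RIP. That of Mef2c, a transcription factor of neuronal differentiation and synapse number, had 195, 31.4 and 94.9 units in HuD RIP and at most 2.81 in a control. Both kept a distance of more than 20 units between the dimmest HuD RIP array and any control.

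Kinases and phosphatases gave 13 of 66. Prkacb, a catalytic subunit of protein kinase A, which carries dopamine receptor signals in the striatum, had 198, 30.9 and 99.5 units in HuD RIP. WT RIP showed 4.31, -0.716 and 1.96 and IgG RIP 2.0, 0.378 and 1.17, so that WT RIP replicate 1 came within 1 unit of the mark. The limit was at least 6.06-fold over WT RIP and at least 4.12-fold over IgG RIP. Csnk1a1, casein kinase 1 alpha, had 234, 22.2 and 69.0 units, with at most 4.0 in a control. Pdpk1, the kinase that activates Akt, gave 2 members, mmu_circRNA_30302 with 299, 16.6 and 50.2 units and mmu_circRNA_006096 with 101, 12.1 and 27.1. The first of these had a wide spread, with a level of 1.58 ± 1.11 (SD, n = 3). In this group 6 of 13 members were above every control floor.

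Synaptic scaffold and adhesion genes gave 7 of 41. Alcam and Cadm1 encode adhesion molecules of the immunoglobulin family. The Alcam circRNA had 179, 29.3 and 106 units in HuD RIP and at most 2.14 in a control, and the Cadm1 circRNA 137, 18.1 and 103 with at most 2.33. Ctnnd1, the catenin that stabilises cadherins, had 121, 14.2 and 41.8 units. Mpp6, a scaffold of the MAGUK family, gave both of the junctions shown above, with 50.9, 10.97 and 30.7 units for mmu_circRNA_40255 and 40.9, 13.9 and 26.2 for mmu_circRNA_000405. On WT RIP replicate 1 the first had 4.70 units, near the mark, and the second 1.87. From synaptic vesicle and endocytosis genes there was no member among 23 named circRNAs, 8 of which were marked on all 9 arrays.

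Channels, receptors and transporters gave 4 of 37. Mcu, the pore of the mitochondrial calcium uniporter, had 171, 22.0 and 73.6 units in HuD RIP, and 4.84 on WT RIP replicate 1. Slc30a9, a zinc transporter, gave 2 members that share no genomic edge, with 82.8, 15.4 and 45.8 units for mmu_circRNA_38720 and 48.7, 12.7 and 48.7 for mmu_circRNA_38718. G protein and calcium signalling gave 1 of 20, the circRNA of the calcium sensor Ncs1, with 61.0, 7.36 and 23.0 units.

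Small GTPase and trafficking genes gave 10 of 43. Rab21, a GTPase of early endosomes, had 178, 21.2 and 48.8 units in HuD RIP and at most 3.28 in a control. The circRNA of Sec23a, a coat protein of vesicles that leave the endoplasmic reticulum, had 216, 11.9 and 49.8 with at most 1.41. Golph3, a Golgi protein, followed with 85.0, 14.1 and 39.1. For Sec23a replicate 1 was over 4 times replicate 3, and its level was 1.27 ± 1.04 (SD, n = 3). In this group 3 of 10 members were above every control floor.

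Cytoskeleton and motor genes gave 7 of 45. Actr2, a subunit of the Arp2/3 complex that starts actin branches, had 201, 37.6 and 126 units in HuD RIP, 4.06, -0.663 and 0.981 in WT RIP and 0.203, 1.05 and -1.13 in IgG RIP. Wasf1 and Abi2 encode parts of the WAVE complex, which switches on Arp2/3. The Wasf1 circRNA had 102, 8.81 and 51.8 units with at most 0.429 in a control. Abi2 gave 2 members, with 71.9, 10.6 and 38.4 units for mmu_circRNA_20220 and 64.8, 6.41 and 20.7 for mmu_circRNA_20222. Unlike Actr2 and Map4, the Wasf1 and Abi2 circRNAs were not above every control floor, because their level on replicate 2 was under the highest of these floors.

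RNA-binding and RNA-processing genes gave 9 of 51. Cpeb2 binds the cytoplasmic polyadenylation element and acts on translation, and its circRNA had 206, 24.0 and 69.4 units in HuD RIP and at most 4.0 in a control. Rc3h2 (roquin-2), which promotes mRNA decay, had 99.4, 28.1 and 61.5 units with no control above 0.578. The 3 Rc3h2 levels lay close together, at 1.38 ± 0.28 (SD, n = 3), and the limit was at least 3.95-fold over WT RIP and at least 2.69-fold over IgG RIP. Msi2, an RNA-binding protein of neural progenitors, had 167, 17.9 and 33.0 units. Its circle spans 176240 bases, the longest among the named members. Cnot2, a subunit of the CCR4-NOT deadenylase, gave mmu_circRNA_22670 with 59.7, 13.5 and 27.2 units and mmu_circRNA_22666 with 38.6, 7.47 and 18.2. The second passed the limit against WT RIP, at least 1.26-fold, and not that against IgG RIP.

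Ubiquitin and SUMO genes gave 12 of 39. Trim8, a RING-type E3 ligase, had 188, 14.5 and 67.4 units in HuD RIP and at most 4.13 in a control. Ube3a, the E3 ligase whose maternal loss causes Angelman syndrome, had 87.1, 20.4 and 67.6 with at most 3.13. Ubxn7, an adaptor between p97 and ubiquitin ligases, had 184, 16.0 and 41.8 with at most 3.22. Of the 12, 6 were above every control floor and 11 passed the limits against both controls. Of the 39 named circRNAs of this group 1 was marked on all 9 arrays. For transcription and chromatin this was 11 of 85, for kinases and phosphatases 10 of 66 and for synaptic scaffold and adhesion 10 of 41. It was 8 of 23 for synaptic vesicle and endocytosis, 7 of 20 for G protein and calcium signalling and 6 of 37 for channels. Small GTPase genes had 7 of 43, cytoskeleton genes 8 of 45 and RNA-binding genes 8 of 51. The share over all named circRNAs was not taken, so nothing is read from these counts.

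**Figure D5:**
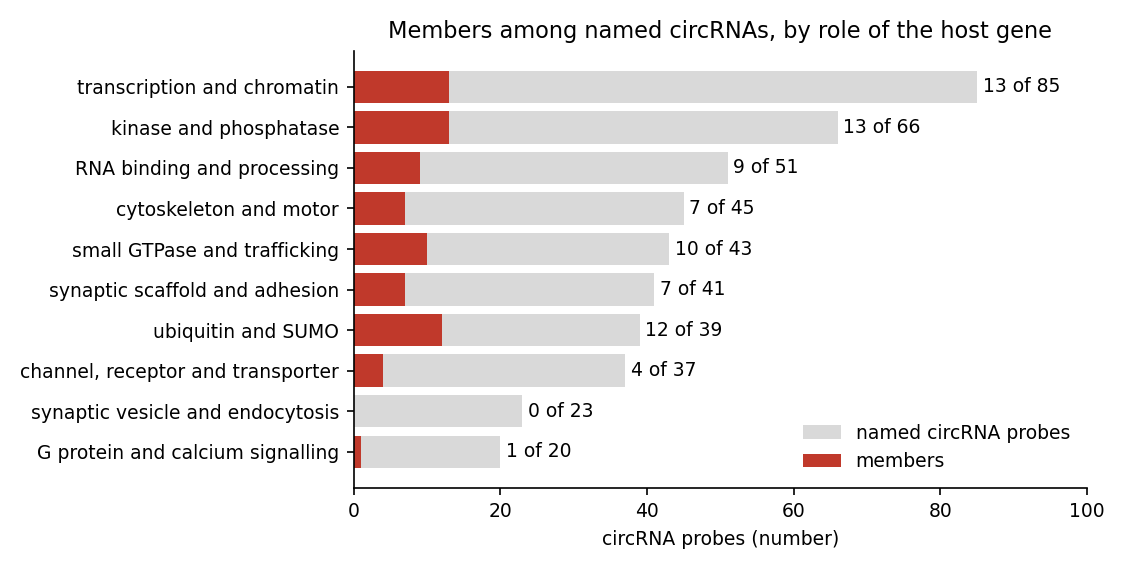
Named circRNA probes (grey) and those that are members (red) by the role of the host gene, as numbers. By number, members were fewest for synaptic vesicle and endocytosis genes (0 of 23). They were most for transcription and chromatin (13 of 85) and for kinases and phosphatases (13 of 66). Ubiquitin and SUMO genes had 12 of 39, and over all named circRNAs 151 of 737 are members.

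None of the 148 members with a gene symbol came from a marker gene of striatal neurons, and the host genes of the others are not known here. Of 13 such markers 3 (Arpp21, Foxp1 and Bcl11b) had a named circRNA, and all 7 of their circRNAs were marked on at least 1 control array. For a circRNA marked on all 3 HuD RIP arrays that is not a member, the rule requires such a mark, so it is no result. Slc1a2 was the sole named astrocyte marker, and its circRNA was marked on all 9 arrays. No marker of oligodendrocytes or microglia had a name here. The labelled tissue was checked on these few circRNAs alone, and the array's other non-control probes were not used for this.

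Of the 137 host genes, 10 gave 2 or more members. Fam3c alone gave 3, with mmu_circRNA_007270 at 134, 27.2 and 97.5 units in HuD RIP and mmu_circRNA_39886 at 74.4, 12.8 and 48.7, after mmu_circRNA_39888 described above. All 3 Fam3c circles were above every control floor. For Sec62, mmu_circRNA_35204 had 68.2, 20.4 and 64.1 units. Tmf1, a Golgi-associated coiled-coil protein, had 63.4, 30.5 and 51.5 units for mmu_circRNA_40594 and 38.3, 24.5 and 43.5 for mmu_circRNA_40595. In both Tmf1 circles replicate 1 exceeded replicate 2 by less than the brightness of these arrays does for the median member. Qrich1 had 110, 10.6 and 55.0 units for mmu_circRNA_45097 and 74.0, 7.41 and 19.5 for mmu_circRNA_007090. The locus XLOC_002678 had 212, 17.2 and 30.9 units for mmu_circRNA_22769 and 76.1, 9.90 and 25.7 for mmu_circRNA_22768.

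The same genes also had named circRNAs that are not members. Among the 137 host genes, 28 had 40 further named circRNAs, all of them marked on all 3 HuD RIP arrays. The rule then requires a mark on some control array for each, so that mark is no result. Of the 40, all were marked on at least 1 WT RIP array, 19 were marked on exactly 1 control array, 12 on at least 1 IgG RIP array and 3 on all 9. For Actr2, mmu_circRNA_19003 was marked on 1 WT RIP array, and mmu_circRNA_22928 on 1 WT RIP and 1 IgG RIP array. The 2 other Cadm1 circRNAs were marked on 2 WT RIP arrays each and on no IgG RIP array. Nucks1 had 1 other circRNA, mmu_circRNA_20866, marked on 2 WT RIP arrays, with a mean HuD RIP level of 2.96 beside 3.11 for the member.

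By class, 126 of the 151 named members were exonic (83.4%, beside 88.4% of the other named circRNAs), 19 were sense overlapping (12.6%, beside 8.36%) and 6 intronic (3.97%, beside 2.39%). Exonic circles hold exons alone, sense overlapping ones lie over a gene on its strand without matching its exons, and intronic ones come from introns. No named member was antisense, against 5 of the other named circRNAs. The median of mean levels was 0.56 for exonic, 0.41 for sense overlapping and 0.49 for intronic members. The span on the genome was 12093 bases in the median, beside 10252, from 152 bases in Pabpn1, which encodes a nuclear poly(A)-binding protein, to that of Msi2. Under 1000 bases there were 5 named members and 61 of the others, and at 30000 bases or more 27 and 124. GC content of the junction had a median of 43.3%, beside 45.0%, and T content 25%, beside 23.3%. The named members lay on 20 chromosomes.

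The authors' tables also list 5 microRNAs per circRNA whose sites were predicted in it. The one listed for most members was mmu-miR-7092-3p, with 15 of 151 (9.93%, beside 6.66% of the other named circRNAs), followed by mmu-miR-7116-3p with 8 (5.30%, beside 2.56%). Next came mmu-miR-1903 with 7 (4.64%, beside 9.22%) and mmu-miR-5110 with 7 (4.64%, beside 2.90%). Of those named here only mmu-miR-1903 had a lower share among the members. The order is by number of members, which favours microRNAs with a higher share among them, so nothing is read from these shares. The mature sequences of mmu-miR-7092-3p and mmu-miR-7116-3p, from RefSeq, are shown with the seed, bases 2 to 8, in capitals.
mmu-miR-7092-3p: uGUUCUUUguuuuguuugccuuag
mmu-miR-7116-3p: uUUUUUUCcuuugccuucucag
These sites are predictions from sequence, and microRNA binding was not measured.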

How the data were processed

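RNA recovered by RIP from mouse striatum was measured on 9 one-colour Arraystar arrays in 3 groups of 3 (HuD, WT and IgG RIP), grouped and numbered by the sample titles. Per the file headers, intensity comes from Feature Extraction 11.0.1.1, where the deposited processed signal is background-subtracted and not normalized between arrays. The authors' deposited tables, which cover circRNAs they called higher in HuD RIP, gave names, classes, positions, junction sequences and predicted microRNAs. Their 32 columns of raw and normalized intensity were not used, and neither were their p-values, false discovery rates and fold changes. Positions are as listed there. Of the 151 named members, 141 matched a RefSeq transcript and 140 of these lay inside its gene on GRCm38.p6, and whether starts count from 0 or 1 is not stated.

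Outlier spots were left out (269 values, 0 of members) and spots of 1 probe averaged. No spot was saturated. Levels are log2 of the processed intensity minus the 75th percentile of the array over its non-control probes. limma 3.58.1 in R 4.3.3 was fitted to all 9 arrays, with 6 residual and 6.42 prior degrees of freedom, over the 6871 probes marked on at least 3 arrays, which include all 547 members. Benjamini-Hochberg adjustment ran over these probes, and the fit was tested on simulated data. P-values weigh a group difference against the spread within the groups of these 9 RIP samples, which may be technical. The number of samples limits the precision. Limits use the lowest level among marked circRNA probes of each control array.

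The members, gene lists and alternatives were chosen with earlier results of these data known. The text names the 10 highest named members, all members of genes with 2 or more, the 3 highest per list, the 3 highest unnamed and 5 on each side of the mark. The circRNA of Pabpn1 was added after its values were seen, and those of the marker genes come from the marker lists.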

Additional observations from a re-analysis of the deposited data

How the results depend on the processing

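The number of circRNAs detected in HuD RIP alone was 547 and ranged from 551 to 1695 with 1 array left out, the highest without HuD RIP replicate 2. Leaving out WT RIP replicate 1 gave 1352. It was 1827 with at least 2 of 3 HuD RIP arrays, 1470 with at most 1 of 6 control arrays and 287 with the scanner's mark for a positive and significant signal. The median level of -0.57 ranged from -0.61 to -0.53 with 1 array left out. On other scales it was 2.54 (quantile), 0.97 (median), -2.68 (percentile over probes marked on all 9 arrays), 3.81 (no scaling) and -0.14 (normexp). The limit against WT RIP was passed by 281 members, by 470 with the percentile over probes marked on all 9 arrays and by 547 without scaling, and by 198 to 356 with 1 array left out. Against IgG RIP 161 became 355 and 547 under the same settings, and 130 to 192 with 1 array left out. Scaling by the median of each array gave 251 against WT RIP and 136 against IgG RIP. The 5th percentile of marked levels as the floor gave 245 and 112. Taking the floor over all non-control probes, an alternative chosen after seeing the data, gave 339 and 161.

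Members called against WT RIP were 313, and 19 with normexp, 205 with the 2 groups alone in the fit, 0 by the methods' t-test after Benjamini-Hochberg (322 at its unadjusted threshold) and 166 to 329 with 1 array left out, with 198 without WT RIP replicate 3. Against IgG RIP 257 became 18 with normexp, 547 without scaling, 85 by that t-test, 143 with the slide as a block, which equals leaving out IgG RIP replicate 3, and 124 to 275 with 1 array left out, with 158 and 160 without IgG RIP replicates 1 and 2. Between WT RIP and IgG RIP limma called 0 members with each array left out, 0 to 0, and the t-test found 47 at its unadjusted threshold and 0 after adjustment. The causes were not tested. With the replicate number as a block the counts were 353, 287 and 0. Deviations from the group mean in same-numbered HuD RIP and WT RIP samples correlated at 0.65, 0.56 and -0.10 for numbers 1, 2 and 3. Pairs with IgG RIP ran from -0.03 to 0.10. The main fit took no pairing by number, although numbers 1 and 2 went together between HuD RIP and WT RIP. Other settings moved no count by over 1.5 times. Control signals under the mark give limits only.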
